A study of Mus musculus with 6 samples.

Results

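Glycolysis converts glucose to pyruvate in the cytosol, and lactate dehydrogenase then turns pyruvate into lactate. Hexokinase traps glucose as glucose 6-phosphate, phosphofructokinase commits the sugar to breakdown, and the later enzymes recover ATP and NADH. In white fat the pathway also supplies glycerol 3-phosphate for triglyceride synthesis and carbon for fatty acid synthesis, and adipocytes release part of their glucose carbon as lactate.

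The transcripts of 10 enzymes of this pathway are described here: the hexokinases Hk1 and Hk2, the isomerase Gpi1, the phosphofructokinases Pfkl and Pfkp, the aldolase Aldoa, the triosephosphate isomerase Tpi1, the phosphoglycerate kinase Pgk1, the pyruvate kinase Pkm and the lactate dehydrogenase Ldha. They were chosen by gene symbol and match 11 of the 25894 Ensembl genes in the table, because 2 identifiers carry the symbol Aldoa. The identifier ENSMUSG00000030695 holds nearly all Aldoa signal and stands for Aldoa below. The other, ENSMUSG00000114515, had normalised read counts between 1.11 and 15.9.

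RNA came from inguinal white adipose tissue, the subcutaneous fat of the groin, of 6 female C57 BL/6N mice described as 15 weeks old and fasted for 10 h, with 1 library per mouse. In 3 mice sleep had been fragmented for 8 weeks, followed by 2 weeks of recovery, and these are called the recovered mice. The other 3 mice carried only the label control. The comparison asks whether fat transcripts still differed from those of controls after recovery sleep. All values are normalised read counts unless stated otherwise, and they were scaled by the authors so that libraries of different depth can be compared. A log2 difference is the mean of log2(value + 1) in recovered mice minus that in controls, tested by limma with Benjamini-Hochberg adjustment over all 22290 genes with a mean value of at least 1.

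All 10 adipocyte markers examined were detected in every library, with Fabp4 between 41622 and 208561. The libraries also differed in their content of other tissues. Skeletal muscle markers summed to 98489 in recovered mouse 1 and 13553 in control 2, against 629 to 2768 in the others, and 8 of the 14 markers were at 0 in at least 1 library. B and plasma cell markers summed to 36829 in recovered mouse 2, 89396 in control 2 and 21563 in control 3, against 1862 to 3482 in the others. Controls 2 and 3 also had relatively fewer reads from GC-rich genes, with a Spearman rho across genes of -0.28 between each library's deviation and GC content, against 0.13 to 0.37 in the other libraries. In bulk tissue, fewer cells of a type and less RNA per cell cannot be told apart.

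No enzyme passed an FDR of 0.05, and neither did any other gene, so the share called was 0% for the 22290 genes and 0 of 10 for the enzymes. edgeR and DESeq2 on recovered reads also called 0 genes, with 754 and 1186 at an unadjusted p under 0.05. Limma-voom with quality weights called 1023 of 16141 genes tested, and limma without control 1 called 844 of 22290. None of the 10 enzymes was among either. The quality weight of control 1 was 0.235, against 0.823 to 2.27 for the other libraries, so the 2 runs are not independent. Limma gave an unadjusted p under 0.05 for 5.39% of all genes and for 0 of the 10 enzymes. The recovered mice did not lie wholly above or below the controls for any enzyme, and they did for 8.59% of all genes. With only 10 enzymes, counts of 0 are near all these shares and do not set the enzymes apart. The log2 differences ran from -0.40 for Ldha to 0.51 for Hk1, with a median of 0.12 beside 0.02 over all genes tested. Within the controls, most of the enzymes were high in control 1 and low in control 2.

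The 250 bases upstream of the RefSeq transcription start (build GRCm38.p6) are shown for 4 of the enzymes, to set the 3 windows with the most sites of a motif beside a window with none, that of Tpi1, the gene set against Ldha below. Capitals mark ACGTG on either strand, 1 form of the core of the element bound by hypoxia-inducible factors. The form GCGTG was not counted. Matches that overlap, as in CACGTG, count as 1 site. The Ldha window is the first of 2 starts, at chr7:46845554-46845803 (+). The Pgk1 window is at chrX:106186850-106187099 (+), the Hk2 window at chr6:82774455-82774704 (-) and the Tpi1 window at chr6:124814159-124814408 (-).
Ldha: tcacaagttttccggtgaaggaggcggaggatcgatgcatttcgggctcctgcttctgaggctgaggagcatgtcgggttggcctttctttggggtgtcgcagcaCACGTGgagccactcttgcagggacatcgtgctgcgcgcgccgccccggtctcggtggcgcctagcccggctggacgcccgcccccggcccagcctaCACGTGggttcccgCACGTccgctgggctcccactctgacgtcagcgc
Pgk1: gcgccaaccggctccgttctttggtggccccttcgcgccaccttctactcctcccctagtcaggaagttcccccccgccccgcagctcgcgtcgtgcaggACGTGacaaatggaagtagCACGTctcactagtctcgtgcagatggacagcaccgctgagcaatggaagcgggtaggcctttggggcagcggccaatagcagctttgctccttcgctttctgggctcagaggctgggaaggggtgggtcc
Hk2: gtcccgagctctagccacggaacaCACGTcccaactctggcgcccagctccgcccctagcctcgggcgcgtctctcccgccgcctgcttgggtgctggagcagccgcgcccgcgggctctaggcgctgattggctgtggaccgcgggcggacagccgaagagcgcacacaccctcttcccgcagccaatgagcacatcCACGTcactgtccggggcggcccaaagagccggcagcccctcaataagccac
Tpi1: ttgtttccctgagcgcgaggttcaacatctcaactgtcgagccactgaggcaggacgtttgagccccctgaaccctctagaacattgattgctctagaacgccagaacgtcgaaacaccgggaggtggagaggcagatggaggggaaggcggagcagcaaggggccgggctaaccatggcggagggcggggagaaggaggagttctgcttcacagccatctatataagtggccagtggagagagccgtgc

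The Ldha window shown holds 3 such sites, and that of the other Ldha start holds none. The Pgk1 and Hk2 windows hold 2 each, and the Tpi1 window holds none. All 10 symbols matched the RefSeq table, with 15 windows in all. Aldoa and Pkm have an ACGTG site in at least 1 of their windows, and Hk1, Gpi1, Pfkl and Pfkp have none of this form. Over all 32851 windows in the table, 16.6% hold at least 1 site, 1.95% hold 2 or more and 0.256% hold 3 or more. A match to these letters is a description of the window and says nothing of binding.

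Per kilobase of exon, the order of transcript levels over the 6 mice was Aldoa, Ldha, Tpi1, Pgk1, Pkm, Gpi1, Pfkl, Hk2, Hk1 and Pfkp. Aldoa had 6919 ± 3163 (SD, n = 6) normalised reads per kb and Ldha 4566 ± 1298, and together they made up between 64.3% and 72.3% of the summed per-kb level of the 10 enzymes in each mouse. Aldoa was above Ldha in 4 of 6 mice, so their order was not fixed. Tpi1, Pgk1 and Pkm followed at 1400 ± 442, 1225 ± 175 and 1213 ± 313, with ranges that overlapped, and Gpi1 at 783 ± 271.

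The hexokinases and phosphofructokinases stood lower. Pfkl and Hk2 had 188 ± 35.1 and 184 ± 31.1 normalised reads per kb with overlapping ranges, and Hk1 and Pfkp had 86.5 ± 26.9 and 78.1 ± 6.48, also overlapping. The gap between Gpi1 and Pfkl held in all 6 mice with no overlap, as did those between Ldha and Tpi1 and between Hk2 and Hk1. Exon length was the union of annotated exons, which for Pfkp came to 13401 bases, and exons that are not used in this tissue would lower a gene's value on this scale.

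**Figure D1:**
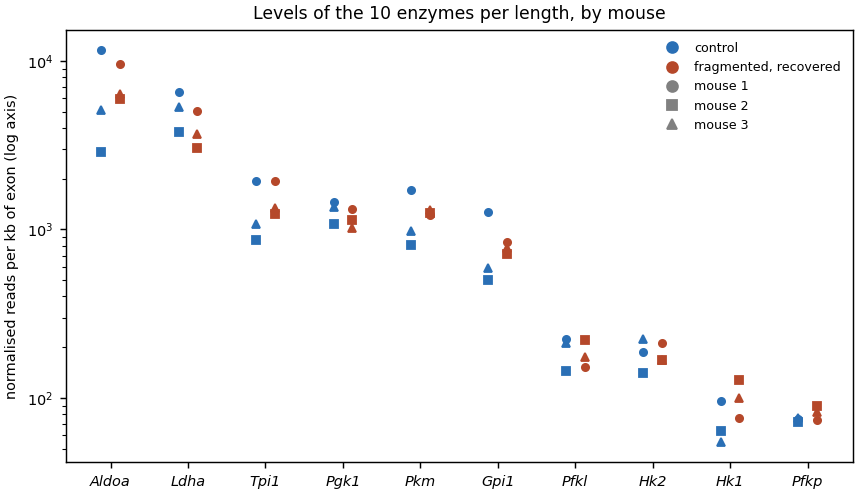
Normalised reads per kb of exon (log axis) for the 10 enzymes in each of 6 mice, in blue for controls and red for recovered mice, with the marker shape giving the mouse number within a group. Aldoa and Ldha lie highest, and the phosphofructokinases and hexokinases lie lowest, in both groups.

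The hexokinases catalyse the first step, and both isoforms bind mitochondria. Hk1, the broadly expressed form, had values of 650, 1088 and 859 in recovered mice 1 to 3 and 822, 544 and 466 in controls 1 to 3. Recovered mouse 1 lay below control 1, so the groups overlapped. The means were 865 ± 219 (SD, n = 3) and 610 ± 187, a log2 difference of 0.51 (SE 0.30, 95% interval -0.16 to 1.19, limma adjusted p = 0.697). It was the largest difference above 0 among the enzymes, and it stayed between 0.33 and 0.81 under every alternative run, with adjusted p-values of 0.0681 or more over limma, edgeR and DESeq2.

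Hk2, the insulin-regulated hexokinase of muscle and fat, had values of 1269, 998 and 1005 in recovered mice and 1124, 840 and 1338 in controls. The values of the groups interleaved. The log2 difference was 0.00 (SE 0.25, 95% interval -0.57 to 0.57, limma adjusted p = 0.997), and its sign changed with the mouse left out, from -0.18 without control 2 to 0.16 without control 3.

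The ratio of Hk2 to Hk1 within a library does not depend on how libraries are scaled. It was 1.95, 0.918 and 1.17 in recovered mice and 1.37, 1.54 and 2.87 in controls. Recovered mice 2 and 3 had the lowest ratios of the 6, and recovered mouse 1 the second highest. The log2 ratio differed by -0.51 between the groups (exact permutation test, two-sided, p = 0.4), where 3 against 3 mice cannot give a p below 0.1. It was -0.18 without control 3 and -0.82 without recovered mouse 1.

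Gpi1 interconverts glucose 6-phosphate and fructose 6-phosphate. Its values were 5460, 4624 and 5005 in recovered mice and 8213, 3218 and 3801 in controls. Recovered mice lay close together, between the high control 1 and the lower controls 2 and 3. The log2 difference was 0.11 (SE 0.35, 95% interval -0.67 to 0.89, limma adjusted p = 0.928), with -0.16 without control 2, -0.035 without control 3 and 0.52 without control 1.

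The phosphofructokinases add the second phosphate, the main control point of the pathway. Pfkl, named for liver, had values of 1020, 1467 and 1174 in recovered mice and 1496, 966 and 1417 in controls, and the groups overlapped throughout. Its log2 difference was -0.07 (SE 0.26, limma adjusted p = 0.936) and was above 0 without recovered mouse 1, at 0.047, and without control 1. Pfkp, named for platelets, had values of 991, 1194 and 1110 in recovered mice and 1005, 968 and 1015 in controls.

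Pfkp was the steadiest enzyme among controls, with a highest value 1.05 times the lowest, and the only 1 of the 10 that varied more in recovered mice. Its log2 difference was 0.14 (SE 0.21, 95% interval -0.34 to 0.62, limma adjusted p = 0.843). Exons of Pfkp overlap those of Pitrm1 on the opposite strand over 748 bases, 5.58% of its exon length. The share was 15.3% for Pkm, with Gm49759 on the same strand, and 11.5% for Gpi1, with Gm26762 on the opposite strand. The overlapping genes had mean values of 1010 for Pitrm1, close to the values of Pfkp itself, 114 for Gm49759 and 9 for Gm26762. Whether counting used strand is not given in the sources used here. The ratio of Pfkp to Pfkl was 0.910 ± 0.0845 (SD, n = 3) in recovered mice and 0.796 ± 0.179 in controls (exact permutation test, two-sided, p = 0.4).

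Aldoa splits fructose 1,6-bisphosphate and is the aldolase of muscle and most other tissues. Its values were 27911, 17384 and 18531 in recovered mice and 33799, 8336 and 14893 in controls. Both the highest and the 2 lowest values belonged to controls. Among controls it was the most variable of the 10 enzymes, with a 4.05-fold range, against 1.61-fold in recovered mice, where Hk1 and Ldha ranged more widely. Recovered mice minus controls gave a log2 difference of 0.37 (SE 0.48, 95% interval -0.71 to 1.44, limma adjusted p = 0.812), with 0.90 without control 1 and -0.11 without control 2. Recovered mouse 1, second highest for Aldoa, was the library highest in skeletal muscle markers, and control 2, the lowest, was the next. Without these 2 libraries the difference was -0.32. With the mean level of skeletal muscle markers as a covariate and all 6 mice it was 0.34. The part of muscle content in the Aldoa difference was not otherwise tested.

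Tpi1 interconverts the 2 triose phosphates that aldolase makes. Its values were 5320, 3414 and 3711 in recovered mice and 5314, 2395 and 2972 in controls. Recovered mouse 1 and control 1 were nearly equal at the top, and controls 2 and 3 were lowest. This gave a log2 difference of 0.28 (SE 0.33, 95% interval -0.46 to 1.02, limma adjusted p = 0.794), with 0.61 without control 1, 0.034 without control 2 and 0.0011 after removal of trends with GC content and length.

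Pgk1, which makes the first ATP of the pathway and is encoded on the X chromosome, was among the steadier enzymes. Its values were 2952, 2540 and 2277 in recovered mice and 3261, 2414 and 3053 in controls. The 2 highest were controls and the lowest was recovered mouse 3. The log2 difference was -0.16 (SE 0.23, 95% interval -0.69 to 0.36, limma adjusted p = 0.828), and it was below 0 under every alternative run, between -0.39 and -0.045.

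Pkm makes pyruvate and the last ATP, and its gene gives the M1 and M2 forms by alternative splicing, which gene counts cannot separate. Its values were 6054, 6291 and 6532 in recovered mice and 8601, 4034 and 4879 in controls. The recovered mice were nearly identical and lay between control 1 and the other controls. The SD of log2 values was 0.055 in recovered mice and 0.57 in controls. The log2 difference was 0.18 (SE 0.30, 95% interval -0.50 to 0.87, limma adjusted p = 0.851), with -0.043 without control 2 and 0.50 without control 1.

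Ldha, the lactate dehydrogenase subunit that favours lactate formation, had the lowest difference of the 10. Its values were 16633, 10108 and 12218 in recovered mice and 21719, 12464 and 17536 in controls. The 2 highest values were controls and the 2 lowest were recovered mice, but recovered mouse 1 lay above control 2. The means were 12986 ± 3330 (SD, n = 3) and 17240 ± 4634, a log2 difference of -0.40 (SE 0.32, 95% interval -1.12 to 0.32, limma adjusted p = 0.725). It was below 0 under every alternative run, between -0.81 without the 2 libraries highest in muscle markers and -0.22 without control 1, and adjusted p-values over limma, edgeR and DESeq2 were 0.326 or more.

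**Figure D2:**
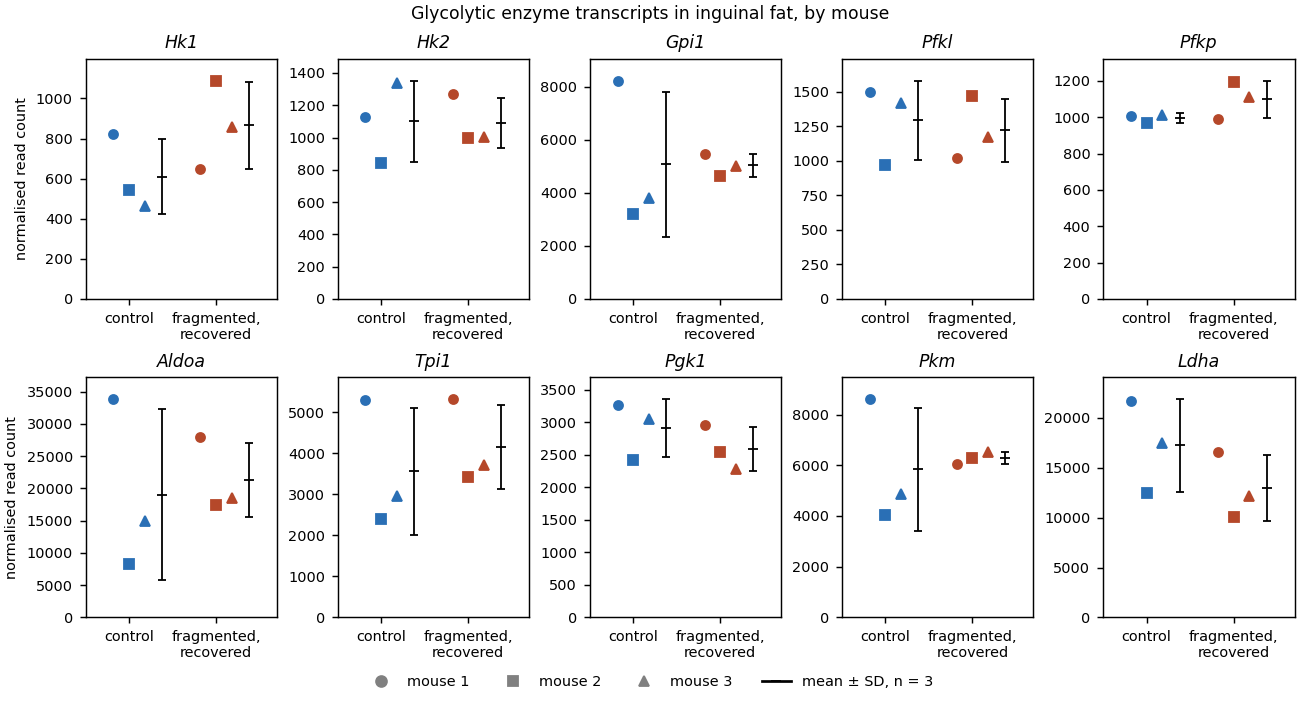
Normalised read counts of the 10 enzymes in each mouse, controls in blue and recovered mice in red, on axes that start at 0, with the mean and SD of each group (n = 3) in black beside the points. For Gpi1, Aldoa, Tpi1 and Pkm, control 1 lies far above controls 2 and 3, and the recovered mice lie between them or level with control 1.

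The controls differed from each other in the same order for most of the pathway, although by less than the median over all genes tested. Those genes go down to a mean value of 1, and no comparison at matched level was made. The SD of log2 values was larger in controls than in recovered mice for 9 of 10 enzymes, beside 64.0% of all genes tested. Its median over the enzymes was 0.41 in controls and 0.23 in recovered mice, and over all genes 0.61 and 0.43. Control 1 had the highest value of the 6 mice for 6 of 10 enzymes, and control 2 the lowest for 7 of 10. The 10 enzymes together took 0.470%, 0.205% and 0.271% of the reads of controls 1 to 3, and 0.359%, 0.329% and 0.315% of those of recovered mice 1 to 3. All 3 recovered mice thus fell inside the range of the controls. The order of controls 1 and 2 was not limited to these enzymes: the median centred log2 level was 0.40 and -0.50 for pentose phosphate enzymes and 0.39 and -0.62 for adipocyte markers. Other related lists did not share it. The levels were -0.12 and 0.16 for regulators of glycolysis and -0.02 and 0.09 for glucose and lactate transporters. For other glycolytic enzymes and isoforms they were -0.28 and -0.20.

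Which control was left out therefore set the sign of the pathway median. It was 0.32 without control 1, with 8 of 10 enzymes above 0 and adjusted p-values in limma of 0.139 or more, and -0.13 without control 2, with 3 of 10 above 0. Leaving out recovered mouse 1 gave 0.067, and leaving out both recovered mouse 1 and control 2, the libraries highest in muscle markers, gave -0.19. With library size alone as scaling it was 0.24, where the median of all genes also moved from 0.02 to 0.12. It was 0.29 with limma-voom and quality weights and 0.047 with DESeq2, where the median of all genes stayed near 0.02 and 0.03.

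Controls 2 and 3, with the lowest shares of reads from these enzymes, were also marked by other features. Control 3 was not low for every enzyme, and its Hk2 value of 1338 was the highest of the 6 mice. Its summed value over the enzymes was 51370, against 49107 in recovered mouse 2. Adipocyte markers summed to 170939 and 214098 in controls 2 and 3, against 470115 in control 1 and 322690 to 613332 in recovered mice. Mammary epithelium markers summed to 8585 and 10500 in controls 2 and 3, against 38957 in control 1 and 28648 to 36777 in recovered mice. With the mean level of B and plasma cell markers as a covariate the median of the enzymes was -0.018, with skeletal muscle markers as a covariate 0.13, and after removal of trends with GC content and length -0.008. Whether adipocyte or mammary content took part in the spread was not tested. The GC content of the enzymes' transcripts ran from 48.7% for Pgk1 to 57.3% for Aldoa, beside a median of 49.5% over all genes tested.

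**Figure D3:**
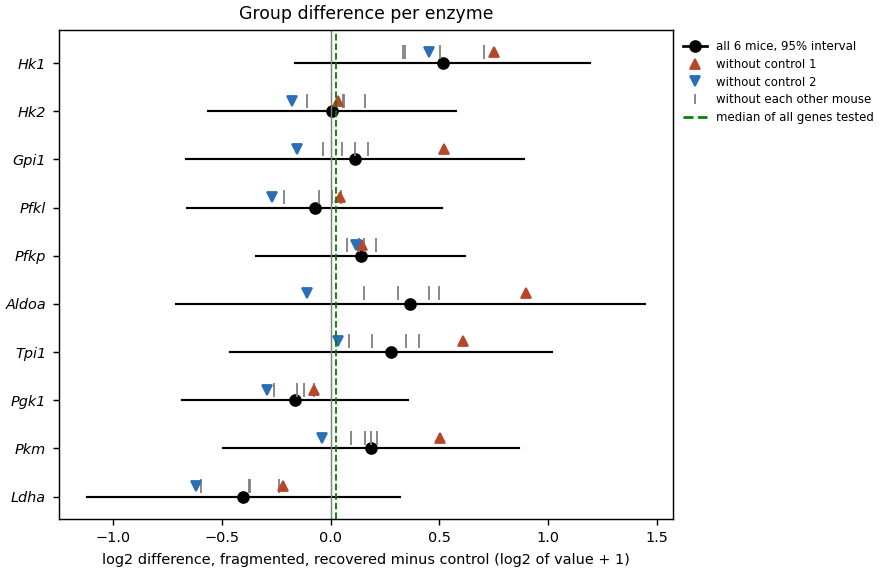
Log2 difference of each enzyme between recovered mice and controls with its 95% interval from limma (black), above it the difference with each mouse left out in turn, and the median of all genes tested (green dashes). Every interval includes 0, and for Hk2, Gpi1, Pfkl, Aldoa and Pkm the values without control 1 and without control 2 lie on opposite sides of 0.

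Within the pathway, some enzymes had closer profiles than others. The root mean square difference of centred log2 values over the 6 mice was smallest for Gpi1 and Pkm at 0.13, followed by Hk2 and Pgk1 at 0.15 and Gpi1 and Tpi1 at 0.18. It was largest for Hk1 and Ldha at 0.66. Gpi1, Pkm and Tpi1 shared the high control 1 and the low controls 2 and 3, while Hk1 was highest in recovered mouse 2 and Ldha lowest there.

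Of the 45 ratios between 2 of the 10 enzymes, 3 did not overlap between the groups: Hk1 to Pfkl, Hk2 to Ldha and Tpi1 to Ldha. Over all pairs of genes with every value above 0 the share was 9.08%, so the enzymes had no more such pairs than genes at large. The last was the widest and was chosen for description after its values were seen. Ldha was 3.13, 2.96 and 3.29 times Tpi1 in recovered mice and 4.09, 5.20 and 5.90 times Tpi1 in controls. All 3 recovered mice thus had less Ldha per Tpi1 than any control, with a mean log2 ratio difference of -0.68, and between -0.83 and -0.56 with each mouse left out. After removal of trends with GC content and length it was -0.54.

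That separation was not rare for Ldha. The ratio of Ldha to another gene separated the groups without overlap for 21.5% of the 16509 genes with all values above 0, and for 2 of the 9 other enzymes. For Tpi1 this share was 5.42%, and it held for 1 of the 9 other enzymes.

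**Figure D4:**
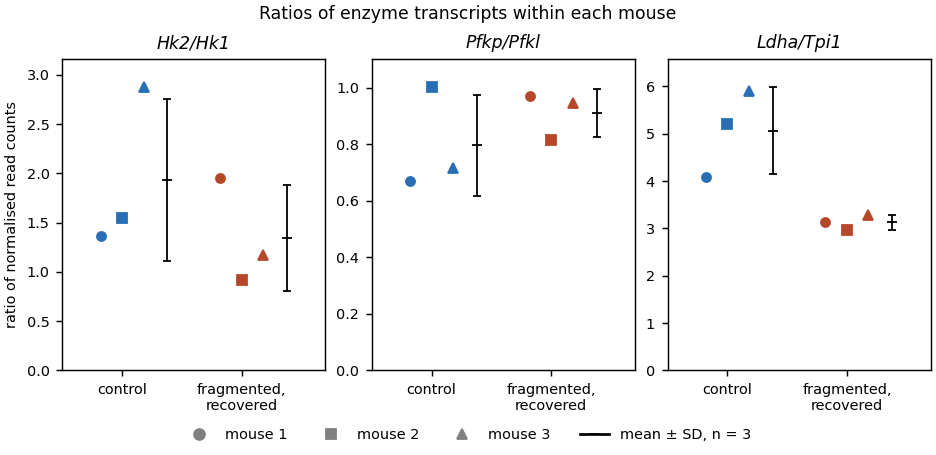
Ratios of normalised read counts within each library for Hk2 to Hk1, Pfkp to Pfkl and Ldha to Tpi1, controls in blue and recovered mice in red, with the mean and SD of each group (n = 3) in black. The groups overlap in the first and second panels and are apart in the third, where recovered mice lie near 3.13 and controls between 4.09 and 5.90.

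Lactate leaves and enters cells through monocarboxylate transporters. Slc16a1, which encodes MCT1, had values of 1005, 1093 and 1243 in recovered mice and 1516, 2248 and 1972 in controls. All recovered mice lay below all controls. The log2 difference was -0.77 (SE 0.24), with an unadjusted p of 0.0099 in limma and an adjusted p of 0.697, so it did not pass. It was the 1 gene of the 11 glucose and lactate transporters with an unadjusted p under 0.05. After removal of those trends it was -0.43, and with limma-voom and quality weights it passed, at -0.81 with an adjusted p of 0.0462.

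Bsg, the chaperone that brings MCT1 to the cell surface, had a log2 difference of 0.52 (SE 0.34). For Slc2a4, which encodes GLUT4, the glucose carrier that insulin brings to the surface, it was 0.29 (SE 0.24). After removal of trends with GC content and length these were 0.10 and 0.0054. The median over the 11 transporters was -0.02, with 4 above and 7 below 0. Ldhb, the dehydrogenase subunit that favours pyruvate, had values of 920, 989 and 906 in recovered mice and 1286, 565 and 821 in controls, with a log2 difference of 0.15 (SE 0.31). Ldhb was named after its values were seen.

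Other glycolytic enzymes and isoforms made up a list of 20 genes, of which 16 were in the table and 15 were tested. None passed, 10 were above 0 and 5 below, and the median was 0.61. The abundant ones did not set that median. Eno1, the main enolase, had a log2 difference of -0.34 (SE 0.32), and Pgam1, the main phosphoglycerate mutase, of -0.04 (SE 0.22). Eno4, an enolase isoform, had values of 7.26, 6.83 and 5.42 in recovered mice and 1.07, 2.26 and 0 in controls. These very low values did not overlap, and limma gave an unadjusted p of 0.037 and an adjusted p of 0.697.

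The muscle isoforms Pfkm, Pgam2 and Eno3, named after their values were seen, followed recovered mouse 1. Eno3 had 2745 there against 107 to 376 in the other libraries, and Pgam2 had 554 against 25.3 to 61.4. Pfkm had 1698 against 433 to 520. Without recovered mouse 1 the log2 differences of Pfkm and Pgam2 went from 0.58 and 1.25 to -0.041 and -0.013. The skeletal muscle markers Acta1 and Ckm were at 28266 and 9949 in that mouse, and Ckm was at 0 in recovered mouse 3 and control 3.

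Gapdh, also chosen after its values were seen, had values of only 12.3 to 68.2. Near-identical processed copies of this gene are numerous in the mouse genome, and the counting of reads that match several places is not given in the sources used here, so its row is uncertain. Named relatives of the 10 enzymes in the table were low by comparison, with means of 68.8 for Tpi-rs11, 52.5 for Ldha-ps2 and 23.6 for Pgk1-rs7. Low values of relatives do not show how shared reads were counted. The levels of enzymes with such copies therefore carry the same uncertainty.

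Regulators of glycolysis had 0 of 12 genes past the threshold or at an unadjusted p under 0.05, with a median log2 difference of 0.09. Pfkfb3, which makes the activator fructose 2,6-bisphosphate, had values of 12968, 9869 and 11137 in recovered mice and 10276, 8108 and 11677 in controls, which overlapped, with a log2 difference of 0.18 (SE 0.27). Hif1a, the hypoxia-inducible factor subunit, had values of 1631, 1644 and 2896 in recovered mice and 1879, 3994 and 3391 in controls. Its log2 difference was -0.57 (SE 0.34, limma adjusted p = 0.697), and the groups overlapped through control 1 and recovered mouse 3. After removal of trends with GC content and length it was -0.064.

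Branches of the pathway gave no call either. Pentose phosphate enzymes had a median of -0.04 over 8 genes. Tkt, the transketolase, had values from 10865 in control 2 to 52180 in control 1, and Taldo1, the transaldolase, from 3829 to 9565 in the same mice, with log2 differences of -0.02 (SE 0.51) and -0.07 (SE 0.33). G6pdx, the entry enzyme of that branch, had 0.66 (SE 0.40).

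Glycogen enzymes had a median of -0.25, with 7 of 9 below 0. Ugp2, which makes UDP-glucose, had values of 2673, 1607 and 2250 in recovered mice and 2798, 2863 and 4038 in controls, with no overlap. Its log2 difference was -0.58 (SE 0.27, limma adjusted p = 0.697), and it was -0.20 after removal of trends with GC content and length. Gyg, the glycogenin primer, had -0.34 (SE 0.27), and Pygm, the muscle phosphorylase, had 1.17 (SE 1.51), turning to -0.84 without recovered mouse 1.

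Glycerol 3-phosphate and gluconeogenic enzymes had a median of 0.12 over 9 genes tested. Pck1, which starts glyceroneogenesis in fat, had 0.15 (SE 0.44), Pcx, pyruvate carboxylase, had -0.27 (SE 0.38), and Fbp1, a phosphatase of gluconeogenesis, had 1.12 (SE 0.80) with values of at most 18.7.

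**Figure D5:**
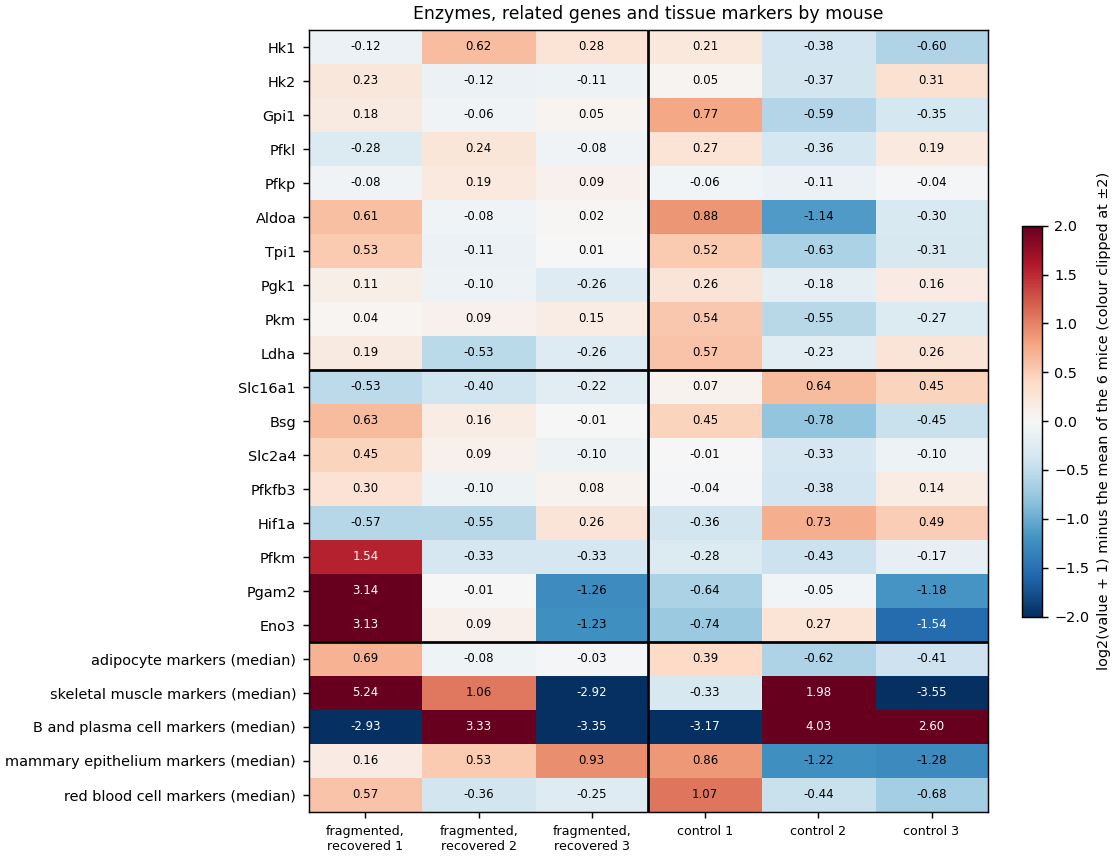
Log2(value + 1) minus its mean over the 6 mice, for the 10 enzymes, 8 related genes and the medians of 5 marker lists, with recovered mice in the left 3 columns and controls in the right 3. Control 1 is above the mean for 9 of 10 enzymes and control 2 is below it for all 10, while Slc16a1 is below the mean in all recovered mice and above it in all controls.

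By the same measure of likeness, 5 genes outside the pathway were closest to the median profile of the 10 enzymes, among 12917 genes with a mean of at least 50. They were Bckdk, a kinase of branched-chain keto acid breakdown, with a root mean square difference of 0.035 over the 6 mice, Mpdu1, which acts in protein glycosylation, at 0.048, Slc25a39, a mitochondrial carrier, at 0.048, Ube2f at 0.056 and Coq6, an enzyme of ubiquinone synthesis, at 0.058. Bckdk had values of 1235, 1078 and 1202 in recovered mice and 1471, 898 and 1016 in controls. This profile was highest in control 1 and lowest in control 2.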

How the data were processed

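RNA of 6 inguinal fat samples, 1 mouse each, was sequenced. The submitters' processing notes name CASAVA, HISAT2 2.0.5, featureCounts 1.5.0-p3 and the build mm8. The authors deposited a normalised signal per Ensembl gene. Each value divided by the smallest value above 0 of its library gave a whole number, within 0.02, for 100% of values. The deposited signal therefore behaves as read counts divided by 1 factor per library. Library totals of these reads ran from 15610201 to 19703569. Genome coordinates are printed only for RefSeq promoter windows, whose build differs from mm8. Symbols matched 25861 identifiers. Exon lengths and GC content came from GENCODE M21.

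Genes with a mean of at least 1 were tested on the log2(value + 1) scale by limma 3.58.1 with an intensity trend in R 4.3.3, a step also tested on simulated data. This scale understates changes of low genes. Alternatives were edgeR 4.0.16, DESeq2 1.42.0 and limma-voom on recovered reads, other scalings, filters and pseudocounts, a replicate block, covariates, removed GC and length trends (splines of 4 degrees of freedom), and left-out mice. The enzymes and gene lists were chosen with earlier results of these data known. Named beyond the 10 enzymes were list members with an unadjusted p under 0.05, the 2 highest per kb and the 1 with the largest difference. One gene that this rule names is not reported here. Other genes are said to be named after their values were seen. The labels do not pair mice across groups. Deviations of same-numbered mice correlated at 0.177, 0.393 and 0.042. No batch is given in the labels.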

Additional observations from a re-analysis of the deposited data

How the results depend on the processing

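With 3 mice a group, the half-width of an enzyme's 95% interval was between 0.48 and 1.08 on the log2 scale, so smaller differences could not be resolved. Every enzyme had at least 418 reads in each library, so counting noise was not the limit. Leaving out 1 mouse gave 0 to 844 of 22290 genes past the threshold, with 844 without control 1. Limma-voom with quality weights gave 1023 of 16141. None of the 10 enzymes was among them. Other alternatives gave 0. The replicate block gave 0 genes and left the median of the enzymes at 0.12; the smallest adjusted p was 0.0705. That median was -0.19 with recovered mouse 1 and control 2 both left out. The ratios Hk2 to Hk1, Pfkp to Pfkl and Ldha to Tpi1 kept their direction under every alternative run for them. The ratio of Ldha to Tpi1 was added after seeing the data.

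Some log2 differences changed sign, and the cause was not tested. With recovered mouse 1 and control 2 both left out, Hk2 had -0.29, Gpi1 -0.22, Aldoa -0.32, Tpi1 -0.16, Pkm -0.015, Pfkfb3 -0.063, Pck1 -0.24, Pfkm -0.11 and Ldhb -0.12. With DESeq2, Hk2 had -0.013 and Gpi1 -0.014. With trends removed, Hk2 had -0.017, Aldoa -0.020, Pck1 -0.048 and Ldhb -0.15. With the B cell covariate, Hk2 had -0.054 and Gpi1 -0.13, and with the muscle covariate Pfkl had 0.010, Tkt 0.085 and Pygm -0.16. With library size alone, Pfkl had 0.046, Pgam1 0.082, Tkt 0.10 and Taldo1 0.049. TMM gave Tkt 0.0017. With limma-voom and quality weights, Hk2 had -0.091, Pgam1 0.056, Tkt 0.27 and Taldo1 0.12.

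With each mouse left out, Hk2 ranged from -0.18 to 0.16, Gpi1 from -0.16 to 0.52, Pfkl from -0.27 to 0.047, Aldoa from -0.11 to 0.90 and Pkm from -0.043 to 0.50. Pgam1 ranged from -0.15 to 0.081, Tkt from -0.60 to 0.54, Taldo1 from -0.39 to 0.27, Pck1 from -0.10 to 0.34 and Ldhb from -0.13 to 0.46. Pygm ranged from -0.84 to 2.55, Pfkm from -0.041 to 0.90 and Pgam2 from -0.013 to 2.19.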

Other observations

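The summed values of the 10 enzymes were 11.1%, 14.5% and 16.2% of the summed values of the 10 adipocyte markers in recovered mice 1 to 3, and 18.2%, 21.2% and 24.0% in controls 1 to 3. This comparison was made after the values were seen. Fabp4 and Cfd held between 42.4% and 60.7% of the marker sum. Against the other 8 markers the enzymes stood at 28.3%, 35.0% and 36.0% in recovered mice and 45.0%, 36.7% and 42.9% in controls. Both percentages were lower in every recovered mouse than in any control, and how often other gene sets do so was not counted. Aldoa and Ldha had the highest values in the enzyme sum, and Ldha had the lowest log2 difference of the enzymes. The difference of median centred log2 levels, enzymes minus markers, was -0.54, 0.015 and 0.044 in recovered mice and 0.0038, 0.25 and 0.25 in controls, where the groups overlapped.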
